A study of Mus musculus with 6 samples.

Results

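The genes described here encode the nuclear subunits of respiratory complexes III and IV, cytochrome c and the ATP synthase of the mitochondrial inner membrane. They are 39 genes, chosen by name for the complex they belong to, out of 24421 gene symbols in the table of read counts. All 39 were in the table, and 38 had enough counts to be tested. RNA was sequenced from C2C12, a line of mouse myoblasts whose cells fuse to myotubes when serum is reduced. All cells had received a lentivirus with a short hairpin RNA, were selected with puromycin and then differentiated in horse serum medium with high glucose. The hairpin was directed against Gaa in 3 libraries (shGAA) and was scrambled in the other 3 (shScrambled). Gaa encodes the lysosomal acid alpha-glucosidase, which digests glycogen delivered to lysosomes. The titles carry the word Fed in both groups, and the labels do not explain it. Separate infections or cultures are not stated for the libraries, nor is the number of hairpins, so p-values here rest on a spread among libraries that could be purely technical.

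Complex III passes electrons from ubiquinol to cytochrome c, and complex IV (cytochrome c oxidase) passes them from cytochrome c to oxygen. Both complexes move protons across the inner membrane, and the ATP synthase uses their return to make ATP. Some core subunits of these complexes are encoded in mitochondrial DNA. The table held 0 mitochondrially encoded symbols, so these are not analysed here. In heart and skeletal muscle, 3 subunits of complex IV have their own isoforms, Cox6a2, Cox7a1 and Cox8b, which take the place of the ubiquitous Cox6a1, Cox7a2 and Cox8a as muscle matures. Transcription of many nuclear genes of these complexes is known to depend on the factors NRF1, GABP (an ETS factor), YY1 and ERR-alpha.

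Promoters of 30 of the 39 genes were found in RefSeq sequence (GRCm38.p6, from 250 bases before to 50 bases after the start of transcription). On both strands, the ETS/GABP motif CCGGAAG was in the promoters of 10 of the 30, or 33.3%, against 9.9% of 27025 genes with a promoter in the table, noncoding genes included. The NRF1 motif GCATGCGC was in 7 (23.3% against 3.0%), and in several of them it matched on both strands in overlapping positions. AAGGTCA, the ERR half-site, was in 4 (13.3% against 5.4%) and AAGATGG, of YY1, in 3 (10.0% against 7.3%). The E-box CAGCTG, a form bound by MyoD, was in 2 (6.7% against 18.3%), Cox8b and Atp5b. A match is only a run of letters in this window and not a bound site. Of the 16 promoters whose gene was lower in shGAA (values below), 6 held the ETS/GABP letters and 3 the NRF1 letters, against 4 and 4 of the other 14. The 180 bases before the start are shown for the Cox8 isoform pair, whose promoters held different motifs (chosen after the matches were seen), and for the c subunit gene Atp5g3, with matches to the motifs in capitals. All lie on the minus strand, Cox8b at chr7:140900447-140900626, Cox8a at chr19:7217617-7217796 and Atp5g3 at chr2:73911327-73911506. None overlaps an exon in GENCODE M21.

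Cox8b: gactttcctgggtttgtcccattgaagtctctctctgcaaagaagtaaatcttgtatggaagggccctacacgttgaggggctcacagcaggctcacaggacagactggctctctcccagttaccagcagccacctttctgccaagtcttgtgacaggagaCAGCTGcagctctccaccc
Cox8a: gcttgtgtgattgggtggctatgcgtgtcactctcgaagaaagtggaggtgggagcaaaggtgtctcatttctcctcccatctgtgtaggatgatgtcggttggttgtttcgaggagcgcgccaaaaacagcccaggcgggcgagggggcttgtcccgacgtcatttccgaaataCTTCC
Atp5g3: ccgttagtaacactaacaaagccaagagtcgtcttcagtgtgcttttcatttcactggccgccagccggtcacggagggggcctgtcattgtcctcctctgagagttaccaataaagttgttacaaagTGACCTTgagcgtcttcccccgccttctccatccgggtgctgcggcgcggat

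In Cox8b the capitals mark an E-box, 19 bases before the start. The capitals that end the Cox8a window are the beginning of an ETS/GABP match that runs past the start. In Atp5g3 they mark the ERR half-site on the opposite strand, 52 bases before the start.

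The libraries held between 9224038 and 10430270 counts. Levels are given as CPM (reads scaled to a common library total, after TMM scaling), and differences as log2 fold changes of shGAA over shScrambled with their standard error (SE). A gene was called at an adjusted p under 0.05 in edgeR's quasi-likelihood test, with Benjamini-Hochberg adjustment over 11801 tested genes. Gaa, the target, fell by 1.25 ± 0.07 on the log2 scale (n = 3 per group, adjusted p = 1.09e-09) and its groups did not overlap. Chi-square per degree of freedom between libraries of a group ran from 1.95 to 5.87, where sampling noise alone would give about 1, and the highest values were those of shScrambled 1. Myotube markers were abundant and lower in shGAA: 9 of 13 tested fell and 0 rose, where 19.7% of all tested genes fell and 18.5% rose. The 14 listed summed to 2616 to 2852 CPM in shGAA and 3525 to 3928 in shScrambled. Of these, 1 marker reached 20309 counts in a library, so it made up a large part of the sum. All 8 markers of cycling cells fell, from 1422 to 1537 CPM in shScrambled to 977 to 1079 in shGAA. Of 5 markers of undifferentiated myoblasts, 3 rose and 1 fell. Of 5 adipocyte markers, 4 had no count in any library and the fifth had at most 1. The 5 markers each of bone and cartilage, of leukocytes and of endothelium summed to at most 0.409, 3.60 and 5.44 CPM. The part of these markers in the results below was not tested, and fewer myotubes and less RNA per myotube cannot be told apart.

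Cultures with the Gaa hairpin had slightly less RNA of many of these subunits, and of one muscle isoform much less. Of 38 members tested, 18 fell, 0 rose and 20 were not called. The 18 make 47.4% of the members, against 19.7% of all tested genes called lower, 18.5% called higher and 38.2% called in either direction. With an offset for transcript length and GC content, 18.4% of the members and 20.4% of all tested genes were called lower, so the members' share was then no higher than the background. The median log2 fold change of the members was -0.14, against 0.01 over all tested genes, and 35 of the 38 were below 0. Cox6a2 was left at 28.8% of its control level. The other 17 members that fell were at up to 91.3% of theirs, and Atp5e was the lowest of these, with a log2 fold change of -0.42. Summed over the 39 genes, the level was 6495 to 6888 CPM in shGAA and 7172 to 7355 CPM in shScrambled, and the groups did not overlap.

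**Figure D1:**
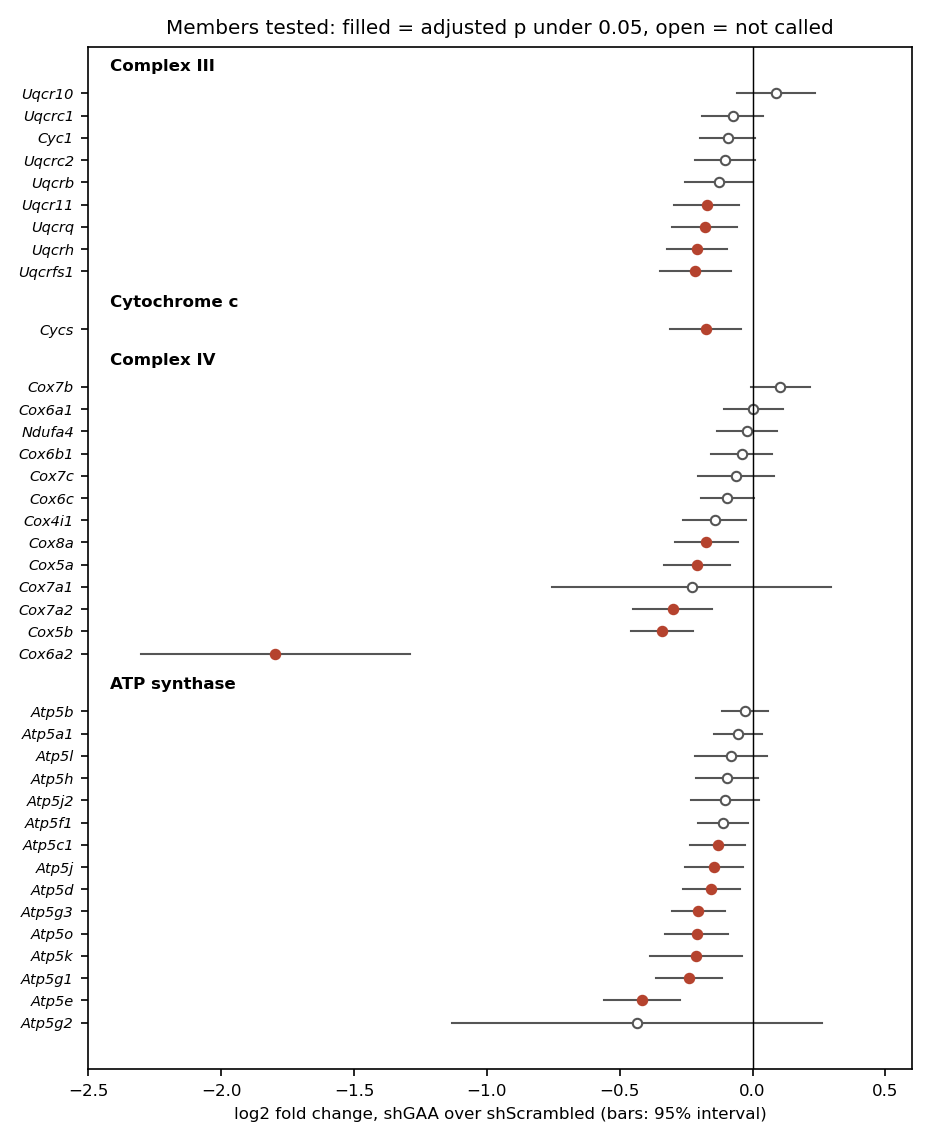
Log2 fold change of shGAA over shScrambled (x axis) for the 38 members tested, sorted within each complex, with 95% intervals as bars. Filled points are the 18 members called lower, open points the 20 not called, and Cox6a2 stands far to the left at -1.80.

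In complex III, 4 of 9 subunits fell, 0 rose and 5 were not called, with a median of -0.13. The 4 make 44.4%, against 19.7% of all tested genes called lower. With the length and GC offset only Uqcrfs1 of the 4 stayed lower, and Uqcr10 was called higher. The largest fall was that of Uqcrfs1, the Rieske iron-sulfur protein that takes electrons from ubiquinol. It was at 87.4, 92.8 and 81.6 CPM in shGAA 1 to 3 and at 94.4, 106 and 103 CPM in shScrambled 1 to 3. All shGAA libraries lay below all shScrambled libraries, with a log2 fold change of -0.22 ± 0.06 (adjusted p = 0.0123). Uqcrh, the hinge protein that holds cytochrome c against cytochrome c1, was at 134, 139 and 126 CPM in shGAA and 156, 153 and 151 CPM in shScrambled, again without overlap (-0.21 ± 0.05, adjusted p = 0.00501). The small accessory subunits Uqcrq (-0.18 ± 0.06, adjusted p = 0.0209) and Uqcr11 (-0.17 ± 0.06, adjusted p = 0.0251) fell by similar amounts. The core proteins Uqcrc1 and Uqcrc2 were not called, with 95% intervals of -0.19 to 0.04 and -0.22 to 0.01 on the log2 scale. Cyc1, cytochrome c1 itself, was at 224 ± 10.5 CPM in shGAA and 239 ± 4.35 in shScrambled (SD, n = 3), with an interval of -0.20 to 0.01. Uqcrb (-0.13 ± 0.06) and Uqcr10 (0.09 ± 0.07) were not called either, and Uqcr10 was the only subunit of complex III above 0. Uqcrb shares 43.4% of its 50-base stretches with transcripts of other genes, and Uqcrc2 24.8%, so part of their reads could have been counted elsewhere or left out.

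Cycs, the somatic cytochrome c that carries electrons from complex III to complex IV, was at 84.0, 84.9 and 75.6 CPM in shGAA and 98.2, 91.2 and 86.7 CPM in shScrambled. Its groups lay close together without overlap, with a log2 fold change of -0.18 ± 0.06 (adjusted p = 0.0374). It shares 28.5% of its stretches with 76 other annotated genes, led by Gm10053.

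In complex IV, 5 of 13 tested subunits fell, 0 rose and 8 were not called, with a median of -0.14. The 5 make 38.5%, against 19.7% of all tested genes called lower and 38.2% called in either direction. With the length and GC offset the calls of Cox5a and Cox8a ended, and Cox6a1 and Cox7b were called higher. Cox5b, the zinc-binding subunit on the matrix side, was at 92.4, 90.1 and 88.3 CPM in shGAA and 110, 112 and 120 CPM in shScrambled. No shGAA library reached the lowest shScrambled library, and the log2 fold change was -0.34 ± 0.06 (adjusted p = 0.000124). Cox5b lies at chr1:36691487-36693388 and shares 23.0% of its 50-base stretches with Gm11273. Cox5a, its neighbour on the matrix side, fell by 0.21 ± 0.06 (adjusted p = 0.00967) and shares 32.0% of its stretches. Cox4i1, the largest nuclear subunit, was at 196 ± 13.5 against 216 ± 9.23 CPM (SD, n = 3) and just missed the threshold (-0.14 ± 0.06, adjusted p = 0.0548). Its call was made without shGAA 2 (adjusted p = 0.0305), without shScrambled 1 (0.00666) and with no filter on low counts (0.0302).

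Of the other ubiquitous subunits of complex IV, Cox7a2 and Cox8a fell and are described with their muscle isoforms, and Ndufa4, Cox6a1, Cox6b1, Cox6c, Cox7b and Cox7c were not called. Ndufa4, once assigned to complex I, had a log2 fold change of -0.02 (95% interval -0.13 to 0.09), and Cox6b1, which faces the intermembrane space, one of -0.04 (-0.15 to 0.07). Cox7c was at -0.06 (-0.21 to 0.08) and Cox6c at -0.10 (-0.20 to 0.01). Cox7b was at 149, 149 and 157 CPM in shGAA and 141, 147 and 136 CPM in shScrambled. These groups did not overlap, with shGAA higher, yet the change of 0.10 ± 0.05 was not called (adjusted p = 0.129). It was called higher with library size as the only scaling, at 0.15 (adjusted p = 0.0287).

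The muscle isoforms of complex IV were scarce in both groups. Per kilobase of transcript, the shScrambled level was 7.25 CPM for Cox6a2 against 256 for Cox6a1, 9.27 for Cox7a1 against 156 for Cox7a2, and 2.74 for Cox8b against 352 for Cox8a. Cox6a2, the muscle form of the subunit that adjusts the enzyme to the ATP to ADP ratio, was counted 11, 15 and 16 times in the shGAA libraries and 46, 50 and 44 times in the controls. The gene lies at chr7:128205435-128206366 (GRCm38.p6), and exons of Itgad on the opposite strand overlap 10.3% of its exonic bases. Every shScrambled library had more than any shGAA library, a 3.47-fold difference (log2 fold change -1.80 ± 0.24, adjusted p = 1.85e-05). Its ubiquitous counterpart Cox6a1 was at 146 ± 2.95 and 146 ± 6.83 CPM (SD, n = 3), with a change of 0.00 and a 95% interval of -0.11 to 0.11. The log2 ratio of Cox6a2 to Cox6a1 counts was -6.66 ± 0.29 in shGAA and -4.88 ± 0.06 in shScrambled (SD, n = 3), a difference of -1.79. An exact two-sided permutation test gave p = 0.10, which is the smallest that 3 against 3 libraries allow, and 0.30 adjusted over the 3 pairs.

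The other isoform pairs gave smaller differences, and the pairs were not tested against each other. Cox7a1 had 34, 33 and 36 counts in shGAA and 24, 49 and 42 in shScrambled, so the shGAA libraries lay inside the range of the controls (-0.23 ± 0.25, adjusted p = 0.497). Cox7a2, the ubiquitous form, was at 91.1, 82.2 and 76.6 CPM in shGAA and 105, 93.8 and 109 CPM in shScrambled. It fell without overlap by 0.30 ± 0.07 (adjusted p = 0.00312). The log2 ratio of the pair was -4.57 ± 0.11 against -4.70 ± 0.63 (exact permutation p = 0.80, 0.80 adjusted). Its difference of 0.14 turned to -0.20 without shScrambled 1, the library with the fewest Cox7a1 counts. Cox8b had 7, 6 and 3 counts in shGAA and 9, 12 and 7 in shScrambled, too few to pass the filter. With no filter its change was -0.86 ± 0.52 (adjusted p = 0.221), which was not detectable as a difference at this depth. Cox8a fell by 0.17 ± 0.06 (adjusted p = 0.0223). The log2 ratio of Cox8b to Cox8a was -8.26 ± 0.60 against -7.57 ± 0.32 (exact permutation p = 0.20, 0.30 adjusted), and its difference of -0.69 was -0.35 without shGAA 3.

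**Figure D2:**
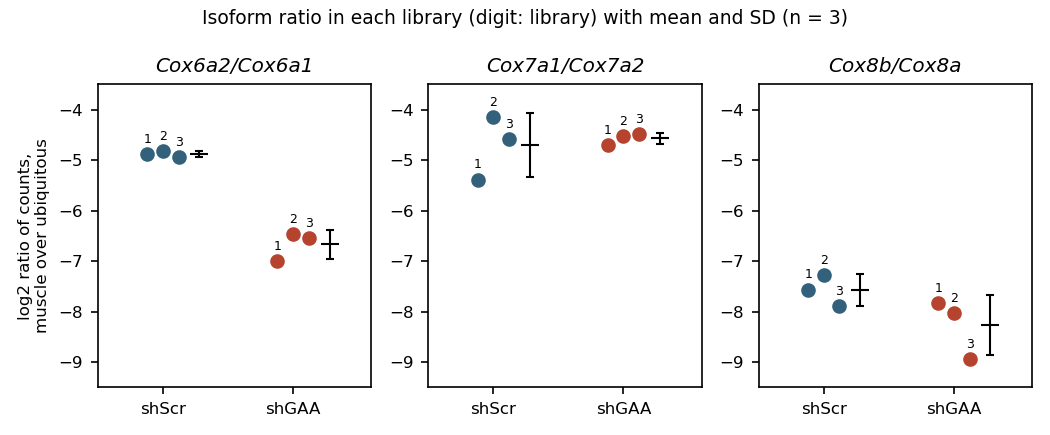
Log2 ratio of the counts of the muscle isoform over the ubiquitous isoform (y axis) in each of the 6 libraries, with mean and SD at the side. The Cox6a2/Cox6a1 ratio is lower in all shGAA libraries, at -6.66 on average against -4.88, and the groups overlap for the other pairs.

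All 15 ATP synthase genes had a log2 fold change below 0, as did 5803 of 11801 tested genes. Of the 15, 8 fell (53.3%, against 19.7% of all tested genes) and 7 were not called, with a median of -0.14. With the length and GC offset, only Atp5e and Atp5g1 of the 8 stayed called. The transcript length assigned to Atp5g1 was 2676 bases, in a gene spanning chr11:96072793-96075694, against 718 bases for Atp5g3. Whether the call of Atp5g1 would stay with a shorter assigned length was not tested. In the catalytic head, the subunits that make up most of its mass hardly differed. Atp5b, the beta subunit that carries the catalytic sites, was the most abundant member, at 1853, 1831 and 1731 CPM in shGAA and 1857, 1855 and 1809 CPM in shScrambled. Its change was -0.03, with a 95% interval of -0.11 to 0.06. Atp5a1, the alpha subunit that alternates with beta in equal number, was at -0.06 (-0.15 to 0.03). Per kilobase in shScrambled, Atp5b was at 961 CPM and Atp5a1 at 271.

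In the central stalk, which turns inside the head, all 3 genes were called lower. Atp5e, the epsilon subunit and the smallest of the stalk, was at 66.8, 61.0 and 55.4 CPM in shGAA and 80.3, 84.3 and 79.5 CPM in shScrambled. All shGAA libraries were lower, and at -0.42 ± 0.07 (adjusted p = 0.000137) it had the largest called fall among the ATP synthase genes. The gamma subunit gene Atp5c1 (-0.13 ± 0.05, adjusted p = 0.0410) and the delta subunit gene Atp5d (-0.15 ± 0.05, adjusted p = 0.0231) changed less.

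The c ring, which rotates as protons pass, is built from a c subunit whose mature protein is the same from all 3 Atp5g genes. Atp5g1 was at 86.1, 85.9 and 80.7 CPM in shGAA and 97.5, 106 and 94.7 CPM in shScrambled, without overlap (-0.24 ± 0.06, adjusted p = 0.00412). Atp5g3, the most abundant of the 3 by counts per kilobase, was at 248, 240 and 230 CPM in shGAA and 275, 274 and 277 CPM in shScrambled, also without overlap (-0.20 ± 0.05, adjusted p = 0.00238). Atp5g2 was uneven, at 94.8, 82.2 and 112 CPM in shGAA and 94.4, 165 and 132 CPM in shScrambled, and was not called (-0.44 ± 0.26, adjusted p = 0.265). It shares 87.4% of its stretches with other genes, led by Gm10175. It was called only in the fit that does not guard against outlying genes (adjusted p = 0.0390).

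In the peripheral stalk and the membrane part, 3 of 7 genes fell (42.9%, against 19.7% of all tested genes). Atp5o encodes OSCP, which ties the stalk to the head, and fell by 0.21 ± 0.06 (adjusted p = 0.00724), from 143 ± 4.01 to 123 ± 7.74 CPM (SD, n = 3). In the annotation, exons on the opposite strand overlap 31.1% of its exonic bases. Atp5o also shares 47.0% of its 50-base stretches with 3 other genes, led by Donson. Atp5j, coupling factor 6, fell by 0.14 ± 0.05 (adjusted p = 0.0347) and shares 12.7% of its exonic bases with Gabpa on the opposite strand. Atp5k, subunit e at the interface between ATP synthase dimers, fell by 0.21 ± 0.08 (adjusted p = 0.0479) and was the only called member whose groups overlapped. Its partner at that interface, Atp5l (subunit g), was at -0.08 (95% interval -0.22 to 0.05), but 84.8% of its stretches occur in other genes. Atp5f1 (subunit b, at -0.11 ± 0.04, adjusted p = 0.0578) had groups that did not overlap and was not called. Atp5h (subunit d, -0.10, interval -0.21 to 0.02) and Atp5j2 (subunit f, -0.10, interval -0.23 to 0.02) were not called. Atp5f1 shares 38.7% and Atp5h 38.8% of their stretches. Atp5h was called without shScrambled 1 (adjusted p = 0.0357).

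**Figure D3:**
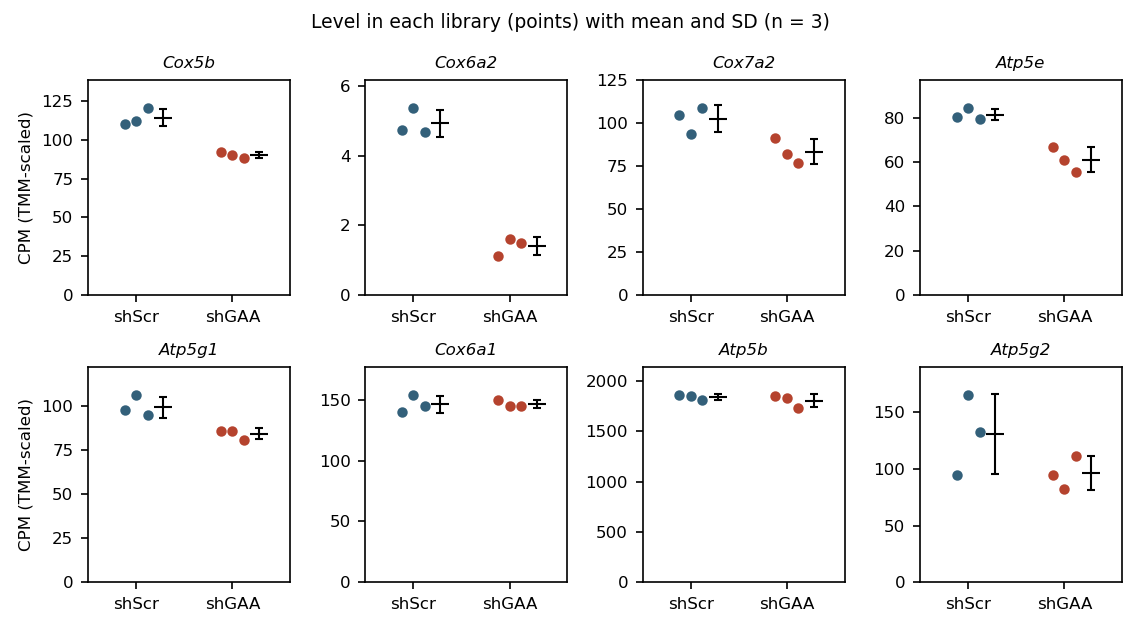
CPM after TMM scaling (y axis, from 0) in each library, with mean and SD, for the 5 members whose call held in every alternative and, for comparison, Cox6a1, Atp5b and Atp5g2. Cox6a2 is the only one with a difference of several-fold, and Atp5g2 spreads most among the controls.

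Only 5 of the 18 calls held in all 14 alternative fits: Cox5b, Cox6a2, Cox7a2, Atp5e and Atp5g1. For Atp5g1, the fits with the length and GC offset rest on its assigned length of 2676 bases. Without shGAA 3 only 8 members were called lower (21.1%, against 16.0% of all genes tested in that fit), and without shScrambled 2 only 10 (26.3% against 17.8%), compared with 18 without shScrambled 1 (47.4% against 20.9%). The median member of shGAA 3 lay 0.09 on the log2 scale below the mean of the other shGAA libraries. Leaving out shGAA 3 ended the calls of Uqcrfs1, Uqcrq, Uqcr11, Cycs, Cox5a, Cox8a, Atp5c1, Atp5d, Atp5j and Atp5k, whose adjusted p then lay between 0.0515 and 0.187. Leaving out shScrambled 2 ended those of Uqcrfs1, Uqcrq, Uqcr11, Cycs, Cox5a, Cox8a, Atp5d and Atp5k (0.0554 to 0.141). Those of Uqcr11, Cycs, Cox8a, Atp5c1 and Atp5j ended without shGAA 1 (0.0566 to 0.0850), and those of Uqcrq, Atp5c1, Atp5j and Atp5k without shGAA 2 (0.0528 to 0.187). The calls of Cycs and Atp5c1 ended without shScrambled 1 (0.0932 and 0.0864), and those of Uqcr11, Atp5c1, Atp5d, Atp5j and Atp5k without shScrambled 3 (0.0824 to 0.139). With library size as the only scaling, 10 members were lower (26.3%, against 15.9% of all tested genes) and 1 was higher. The same setting changed the split over all tested genes from 2182 higher and 2330 lower to 2809 higher and 1872 lower.

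The members have short transcripts, and short transcripts as a class were lower in shGAA. The median length was 670 bases for the members tested and 2750 bases for all tested genes with a known length. Among tested genes that are not members, the median log2 fold change was -0.21 in the shortest class of transcripts (75 genes) and 0.06 in the longest (1024 genes). Of 876 other genes under 1000 bases, 27.4% were called lower and 8.22% higher, with a median of -0.10. Of the 27 members under 1000 bases, 51.9% were called lower, with a median of -0.17. Of the 11 longer members, 36.4% were called lower, with a median of -0.10. Atp5g1 was counted among the longer members by its assigned length of 2676 bases. With an offset that removes each library's trend with length and GC content, 7 members remained lower: Uqcrfs1, Cycs, Cox5b, Cox6a2, Cox7a2, Atp5e and Atp5g1. In that fit 3 were higher, Uqcr10 (0.26, adjusted p = 0.00498), Cox6a1 (0.13, adjusted p = 0.0376) and Cox7b (0.15, adjusted p = 0.0190), and the members' median was -0.04. The 7 lower members make 18.4% of the members, against 20.4% of all tested genes in the same fit, and the 3 higher ones 7.89% against 18.5%. Whether the length trend arose in the cells or in library making was not tested.

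**Figure D4:**
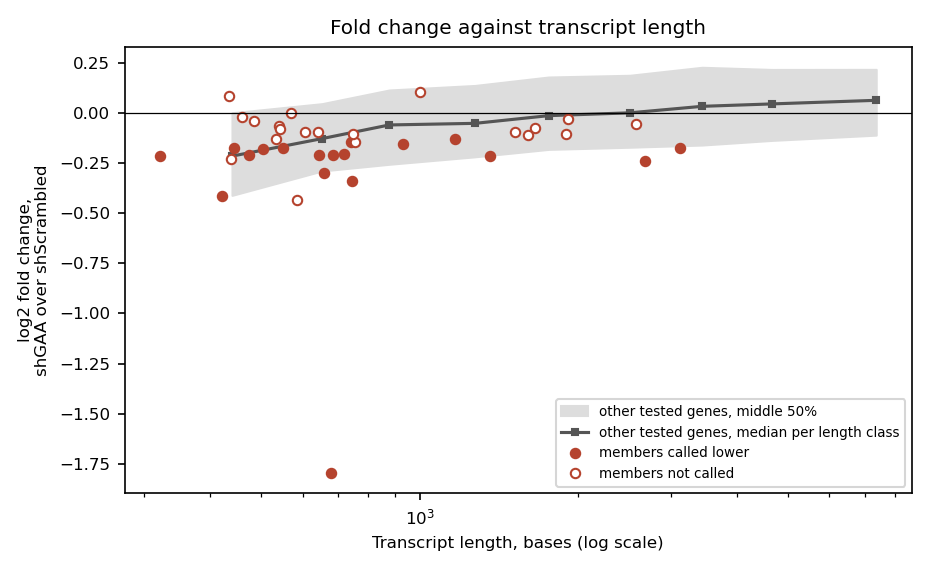
Log2 fold change (y axis) against transcript length in bases (x axis, log scale) for the 38 members tested, over the median and the middle 50% of other tested genes in each length class. The median of other genes runs from -0.21 in the shortest class to 0.06 in the longest, and most members lie within the middle 50% of other genes.

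Genes that act with these complexes were counted in the same fit, from 7 lists of 98 genes, of which 89 were tested. Of these, 18 fell, or 20.2%, which is close to the 19.7% of all tested genes, and 7 rose, or 7.87% against 18.5%, with a median of -0.08. Of 35 complex I subunits tested, 6 fell, 1 rose and 28 were not called, with a median of -0.11. The 6 make 17.1% of them, against 19.7% of all tested genes. With the length and GC offset the balance turned round, to 6 higher and 3 lower with a median of -0.02. The number lower was 2 without shGAA 1, 2 without shGAA 3, 3 without shScrambled 3 and 10 without shScrambled 1. Ndufa2 fell by 0.34 ± 0.07 (adjusted p = 0.00187) and Ndufs6, which shares 8.6% of its stretches with Ndufs6b, by 0.29 ± 0.08 (adjusted p = 0.00733), while Ndufa13 rose by 0.23 ± 0.07 (adjusted p = 0.00932). Exons of Tssk6 overlap 30.0% of Ndufa13 on the opposite strand. Of 4 complex II genes only Sdhb, the iron-sulfur subunit, fell (-0.19 ± 0.06, adjusted p = 0.0227). Atpif1, the inhibitor that blocks ATP hydrolysis by the synthase, rose by 0.20 ± 0.06 (adjusted p = 0.0104), from 72.1 ± 2.20 to 82.6 ± 1.25 CPM (SD, n = 3). A noncoding gene on the opposite strand, Gm12999, overlaps 33.7% of it. 2010107E04Rik, a small ATP synthase subunit gene, fell by 0.29 ± 0.07 (adjusted p = 0.00337). Cox4i2, Cox6b2, Cox8c and Cyct, further isoforms of complex IV and cytochrome c, had no count in any library and are named after their values were seen. The complex I subunit Ndufs5 also had no count in any library and is named for the same reason. Whether genes without counts lacked RNA was not tested. The call of Ndufa13 ended without shGAA 2 (adjusted p = 0.0693). That of Sdhb ended without shGAA 1 (0.0505), without shGAA 3 (0.111) and without shScrambled 2 (0.133), and when only library size was scaled for (0.0740). With the length and GC offset, Ndufs6 (0.117) and Sdhb (0.103) were not called.

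Assembly factors moved both ways. Of 24 tested for complex IV, 4 rose (16.7%, against 18.5% of all tested genes) and 8 fell (33.3% against 19.7%), with a median of -0.05. When any 1 library was left out, 4 to 6 fell. With the length and GC offset 4 rose and 4 fell, 16.7% each, against 18.5% and 20.4% of all tested genes. Coa5 rose by 0.36 ± 0.05 (adjusted p = 3.58e-05) and Higd2a by 0.35 ± 0.08 (adjusted p = 0.00218), while Cox17, the copper chaperone, fell by 0.34 ± 0.07 (adjusted p = 0.00101). Of 6 tested for complex III, Uqcc2 fell (-0.26 ± 0.05, adjusted p = 0.00117) and the others were not called, and none of the 3 for ATP synthase was called. Among 12 tested regulators, 1 rose and 1 fell, 8.33% each, against 18.5% and 19.7% of all tested genes. Ppargc1a, a coactivator of mitochondrial genes, had 54, 33 and 45 counts in shGAA and 8, 8 and 18 in shScrambled, so that it rose while the members' median was below 0 (1.88 ± 0.31, adjusted p = 0.000158). Nrf1, whose motif was counted above, fell by 0.22 ± 0.07 (adjusted p = 0.0248). Its call ended without shGAA 1 (0.0813), without shGAA 3 (0.0769), without shScrambled 1 (0.0714), in DESeq2 (0.0924) and when only library size was scaled for (0.0691). The call of Uqcc2 ended with the length and GC offset (0.113). Gabpa was at 0.06 (adjusted p = 0.430) and Esrra at -0.05 (adjusted p = 0.577).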

How the data were processed

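RNA-seq read counts per gene symbol were used as deposited by the authors, for 6 libraries. The submitters' processing notes name HISAT2 2.1.0, Subread, FastQC, edgeR and the mm10 build. For annotation, strand setting and multimapping reads, nothing was given in the sources used here. Genes were filtered with filterByExpr, libraries scaled by TMM, and shGAA compared with shScrambled by edgeR 4.0.16 (quasi-likelihood, robust, Benjamini-Hochberg adjustment over 11801 genes) in R 4.3.3. Tested genes held at least 99.9% of each library's counts. Isoform ratios used counts plus 0.5 and exact permutation tests, also in R. Gene annotation, promoter motifs and figures were made in Python 3.11.15. Alternatives used library size scaling, DESeq2 1.42.0, limma 3.58.1 (voom), no filter, a non-robust fit, a replicate block, a length and GC offset, and each library left out. Transcript lengths and shared 50-base stretches came from GENCODE M21 and positions from RefSeq. The code was tested on simulated data, where calls on unchanged genes somewhat exceeded the nominal share.

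All members were named whatever their values. Of each related list up to 3 called genes with the smallest adjusted p were named, with Ppargc1a, Nrf1, Gabpa and Esrra always. Members and lists were chosen with earlier results of these data known.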

Additional observations from a re-analysis of the deposited data

How the results depend on the processing

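Of the 39 genes, members called lower numbered 18, and 10 when scaled by library size alone, 7 with the length and GC offset, and 7 with that offset and a replicate block. Members called higher numbered 0, and 1, 3 and 2 in these fits. Leaving out 1 library gave 8 to 18 lower and 0 higher. DESeq2 gave 12 lower, voom 17, no filter 19 and the non-robust fit 18. Related genes called lower numbered 18, and 9 with library size, 10 in DESeq2, 9 with the offset, 7 with the offset and a replicate block, and 8 to 19 with 1 library left out. Those called higher numbered 7, and 12 with the offset, 11 with the offset and a replicate block, and 5 to 7 with 1 library left out. The causes were not tested.

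With a replicate block alone, 15 members and 13 related genes were lower. The labels do not state whether the numbers pair the libraries. After centring within each group, same-numbered libraries had correlations of -0.04, 0.06 and -0.01, and not every library correlated best with its own number. With 3 libraries per group, centred on their own mean, this check cannot decide whether they were paired. Under the replicate block the isoform ratios had exact sign-flip p-values of 0.25, 0.75 and 0.25 for Cox6a2, Cox7a1 and Cox8b. The smallest p that 3 pairs of libraries allow in this sign-flip test is 0.25, so it could call no ratio. Leaving out 1 library gave differences of -1.89 to -1.62 for Cox6a2/Cox6a1, -0.20 to 0.42 for Cox7a1/Cox7a2 and -0.91 to -0.35 for Cox8b/Cox8a. Among the 27 tested members with under 20% of stretches shared, an alternative chosen after seeing the data, 14 were lower and 0 higher. Depth limits Cox8b, Cox7a1 and Cox6a2, which had at most 50 counts in a library.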
